A study of Mus musculus with 2 samples.

Results

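The subunit genes of oxidative phosphorylation were examined in mouse embryonic stem (ES) cells with a knockdown of H2A.B, a variant of histone H2A, and in ES cells given a control hairpin. Genes were taken by the symbol that the platform annotation gives to a probe set naming 1 gene: symbols starting with Nduf followed by a, b, c, s or v (complex I), the symbols Sdha to Sdhd (complex II), and symbols starting with Uqcr (complex III), Cox4 to Cox8 (complex IV) or Atp5 (complex V, the ATP synthase). This gave 87 genes of 17098 named on the array, read by 148 probe sets of 45118. Complex I had 42 genes, complex II 4, complex III 7, complex IV 17 and complex V 17. The prefix Nduf also takes in 7 assembly factors of complex I (Ndufaf1 to Ndufaf6 and Ndufaf8), which help to build the complex and are not part of it. It further takes in a symbol of a pseudogene, Ndufs5-ps, whose probe sets may also read Ndufs5. Cox7a2l, a factor of respiratory supercomplexes, was kept with complex IV and Ndufa4 with complex I, although Ndufa4 is now counted as a subunit of complex IV.

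In both groups the ES cells were infected with a pMSCV-neo retrovirus that makes a short hairpin RNA from the U6 promoter, and were grown on gelatin with serum and ESGRO in the absence of feeder cells. The control group carried a control sequence and the knockdown group a hairpin against H2A.B; the knockdown sample is numbered 1 in its title, which is not explained. RNA came from cells under G418, which was given for 2 to 4 weeks. Each group had 1 Affymetrix array, so no difference has a replicate error, no test was possible and the values describe these 2 arrays.

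Oxidative phosphorylation takes place in the inner mitochondrial membrane. Complexes I and II pass electrons from NADH and succinate to ubiquinone, complex III passes them to cytochrome c and complex IV to oxygen. Complexes I, III and IV pump protons across the membrane, and complex V uses the return flow of protons to make ATP. Most subunits are encoded in the nucleus, and several subunits of complex IV have separate genes for muscle or testis. ES cells in culture rely strongly on glycolysis and also respire.

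The values are log2 intensities, and each gene was read from its brightest probe set, by the mean of the control and knockdown values. Intensities of different probe sets depend on the probes, so levels are not ranked between genes. Differences are knockdown minus control on the log2 scale. In the knockdown column 618 values were not log2 intensities, 616 of them a series rising in steps of 1, and in the control column 1455 values copied a value from up to 20 rows above; these were left out. The copies lay between rows 18185 and 33642, which are called the middle section here, with a first section before and a last section after it. The removal took 7 of the 148 probe sets and all probe sets of Cox4i1, Ndufa4l2 and Atp5l. Of the 84 genes left, 81 had a mean of at least 6.73, which is the median of the gene means, and passed the expression filter. Ndufb8, Cox4i2 and Cox7b2 did not.

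The ES cell marker genes Pou5f1 (control 12.65, knockdown 12.64) and Sox2 (12.38 and 12.41) had high intensities on both arrays. No probe set named an H2A.B gene, so the knockdown was not checked. The 24 poly-A spikes, RNAs added to the sample, differed by a median of -0.14 and the 18 hybridisation spikes by 0.0012. The 3 b-actin control probe sets all lay above 0 (median 0.36, from 0.18 to 0.39), and the 3 Gapdh ones had a median of -0.0080. All 6 fibroblast markers past the filter lay above 0, from 0.072 to 0.34. The part of these controls and of the fibroblast markers in the results was not tested.

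Only 1 of the 81 genes differed by at least 1.5-fold. It was Cox8b, a muscle isoform of complex IV subunit 8, and it was lower on the knockdown array. Cox8b passed the filter on the mean of both arrays (6.99) through its control value, and its knockdown value of 6.03 lay below the filter. None was at least 1.5-fold higher. Among the 8282 genes of the array past the filter, 3.84% were at least 1.5-fold lower, 1.8% at least 1.5-fold higher and 1.96% at least 2-fold different in either direction. The 81 genes had a control median of 11.07, against 8.84 for those 8282 genes, and the shares were not matched for intensity. In the first section, which held 55 of the 81, 16 of 4920 genes past the filter were at least 1.5-fold higher and 46 lower. Apart from Cox8b, the other 80 genes lay between -0.51 and 0.32. Within those limits the genes leaned to the lower side: 54 of 81 lay below 0, against 50.6% of all genes past the filter. Their median was -0.033, against -0.0016 for all genes. For a single gene, the differences read by its several probe sets had a median SD of 0.052, which is technical and comes from within the same 2 arrays; it is no error of a median over many genes, and that error is unknown with 1 array per group.

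**Figure D1:**
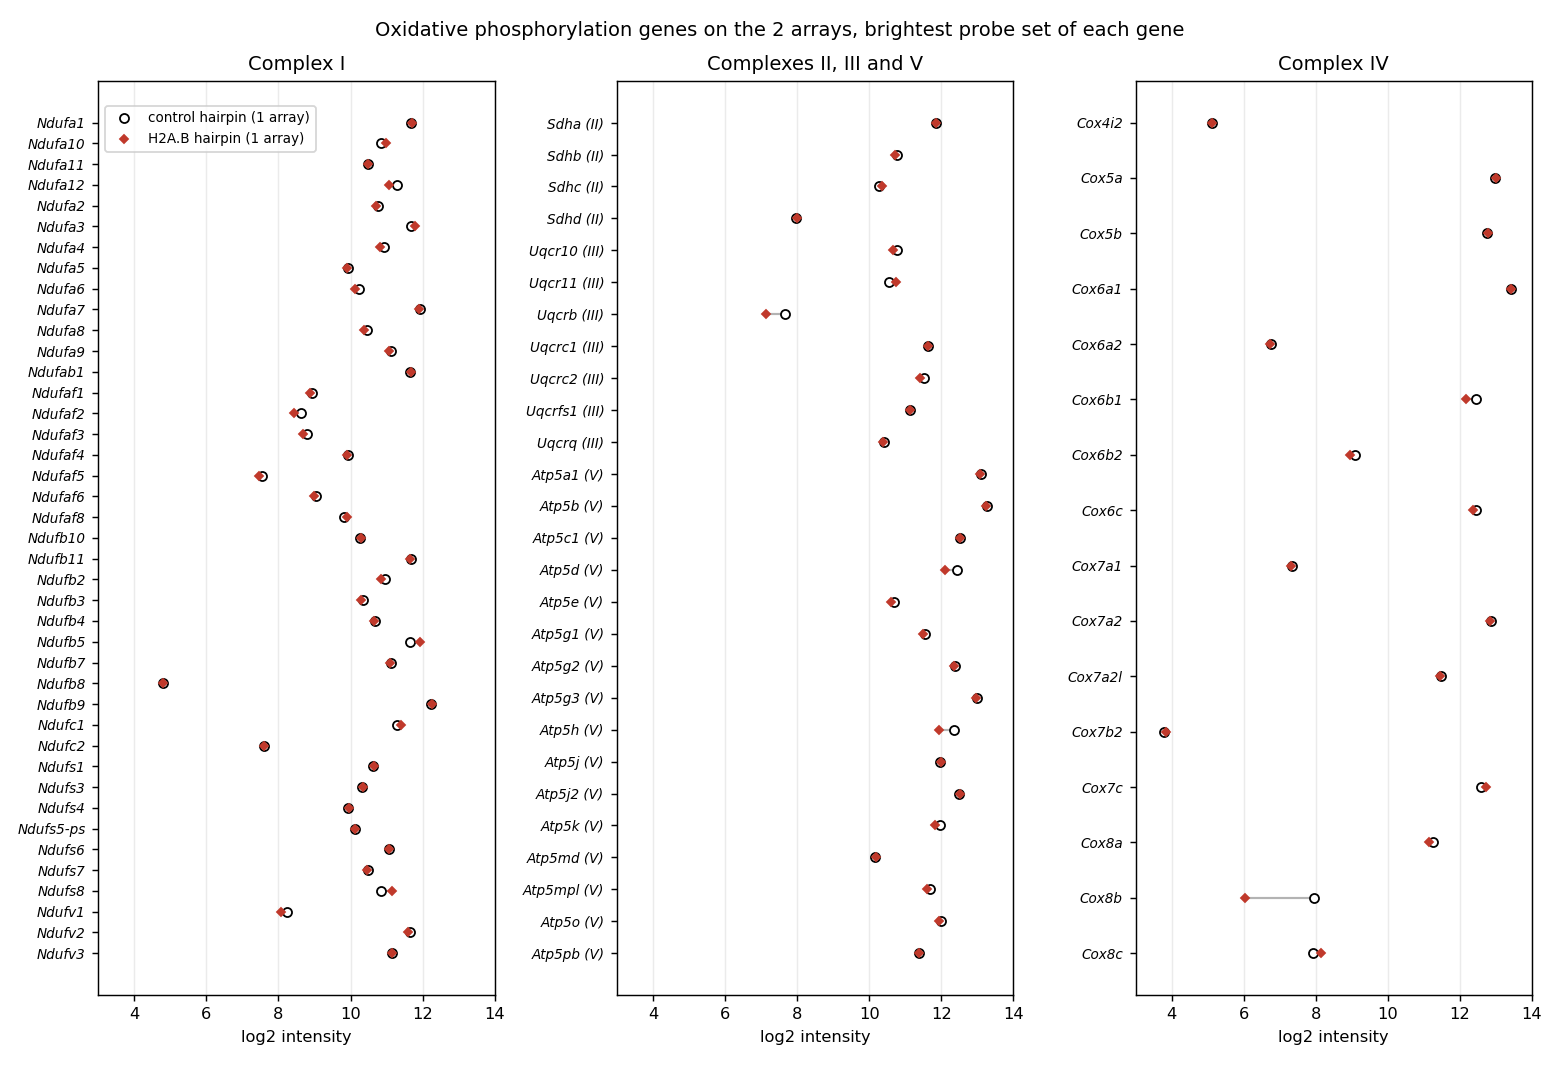
The log2 intensity of each of 84 genes on the control array (open circles) and the knockdown array (red diamonds), in alphabetical order within each complex, with a grey line joining the arrays. For most genes the symbols overlap, and Cox8b (7.95 and 6.03) has the longest line.

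The spread of the differences depended on where a probe set stood in the deposited table. In the first section the differences of all genes were narrow, with quartiles of -0.040 and 0.050, and in the middle section they were wide, with quartiles of -0.24 and 0.14; in the last they were -0.26 and 0.15. Of the 81 genes, 55 were read from the first section, 17 from the middle and 9 from the last. In the first section 44 of 55 lay below 0, with a median of -0.038, which is a change of -2.57% in intensity; of all genes past the filter in that section 47.7% lay below 0 and the median was 0.0030. In the middle section only 5 of 17 lay below 0 (median 0.034), against 55.1% of all genes there. In the last section 5 of 9 did (median -0.043), against 54.5%. The lean to lower values was thus seen in the first section and not in the middle, and a cause for that split was not tested.

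**Figure D2:**
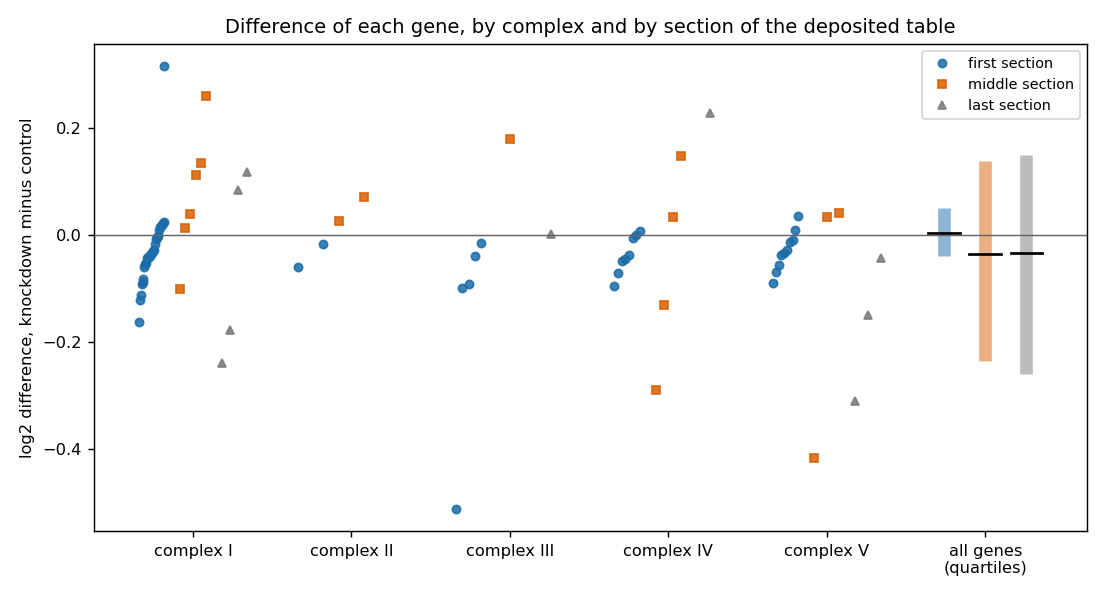
The log2 difference of each gene past the filter, knockdown minus control, by complex and by section of the deposited table, with the quartiles (bars) and median (black line) of all genes in each section at the right; Cox8b (-1.92, complex IV, middle section) lies outside the axis and is not drawn. Blue points of the first section lie in a narrow band, mostly below 0, while orange and grey points scatter more widely.

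Complex I takes electrons from NADH through a flavin and a chain of iron-sulphur clusters. Its 40 genes past the filter had a median of -0.030, with 26 below 0 and a range from -0.24 to 0.32. The genes of the core, which hold the flavin and the clusters, differed little. Ndufs1, the largest subunit, had 10.62 in the control and 10.64 in the knockdown (0.019). Ndufs3 had 10.32 and 10.33 (0.0082), and Ndufs7, which holds the last cluster before ubiquinone, had 10.48 and 10.47 (-0.0081). Ndufv2 of the NADH-binding part had 11.64 and 11.60 (-0.035). These 4 genes lay within 0.04 of the control on both sides of 0.

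The exceptions in the core were Ndufs8 and Ndufv1. Ndufs8, a ubiquinone-side cluster subunit, had the highest difference of complex I, with 10.84 in the control and 11.16 in the knockdown (0.32). Its other 3 probe sets differed by 0.15, 0.20 and 0.0038, so the 4 probe sets lay on the same side of 0 but not at the same size. Ndufv1, which binds NADH and the flavin, had 8.23 and 8.07 (-0.16), while its dimmer probe set had 5.35 and 6.01 (0.66), in the opposite direction. The direction for Ndufv1 was therefore not settled by these arrays.

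Among the accessory subunits, which surround the core, Ndufa12 had the lowest difference, with 11.29 and 11.05 (-0.24). Its only other usable probe set was dim, at 3.20 and 3.21. Ndufb9 had 12.22 and 12.26 (0.039) and Ndufa4 10.93 and 10.81 (-0.11). Ndufa7 was read by 5 probe sets spread over the 3 sections, and all of them lay below 0, from -0.085 to -0.023. Ndufb5 had 11.66 and 11.92 (0.26), with 0.10 on its dimmer probe set. Ndufb8 lost its brighter probe set to a copied control value and was left with a dim one at 4.81 and 4.79.

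The 7 assembly factors of complex I had a median of -0.060 and 6 of them lay below 0. Ndufaf2, a chaperone of late assembly, had 8.62 and 8.44 (-0.18). Ndufaf1 and Ndufaf3, which act in building the membrane and ubiquinone parts, differed by -0.060 and -0.089. Ndufaf8 was the exception, with 9.82 and 9.91 (0.083), but its dimmer probe set differed by -0.34. The 32 subunit genes past the filter, without these factors and Ndufs5-ps, had a median of -0.013 and 20 below 0.

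Complex II, which is also the succinate dehydrogenase of the citric acid cycle, had all 4 genes within 0.1. Sdha, the flavoprotein, had 11.86 in the control and 11.84 in the knockdown (-0.016). Sdhb, the iron-sulphur subunit, had 10.77 and 10.71 (-0.060). The membrane anchors lay on the other side of 0, Sdhc with 10.27 and 10.34 (0.071) and Sdhd with 7.98 and 8.01 (0.027). The genes below 0 were read from the first section and the anchors from the middle. The difference of Sdhc was shared to 8 decimals by another probe set. The median of the 4 was 0.0051.

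Complex III had 7 genes, with 5 below 0 and a median of -0.040. Uqcrb, the ubiquinone-binding protein gene, had the lowest difference, with 7.66 in the control and 7.15 in the knockdown (-0.51) on its only probe set. It came closest to the 1.5-fold limit (0.58 on this scale) among the genes that did not reach it. The core protein genes Uqcrc1 (11.64 and 11.62, a difference of -0.015) and Uqcrc2 (11.51 and 11.42, a difference of -0.092) lay below 0, although the other probe set of Uqcrc2, in the middle section, differed by 0.041. Uqcrfs1, the Rieske iron-sulphur protein, had 11.12 on both arrays (0.0016). Uqcr11, a small subunit, was highest, with 10.55 and 10.73 (0.18), a difference that another probe set shared to 8 decimals. All 5 genes below 0 were read from the first section. Uqcr11 and Uqcrfs1 came from the middle and last.

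Complex IV had 14 genes past the filter, with 9 below 0, a median of -0.042 and a range from -1.92 to 0.23. Among the subunit genes used in most tissues, some lay close to 0 and others did not. Cox6a1 had 13.42 on both arrays (0.00012), Cox5a had 12.98 and 12.99 (0.0076) and Cox7a2 12.87 and 12.83 (-0.038). Cox5b had 12.75 and 12.79 (0.034), but its 3 dimmer probe sets differed by -0.34, -0.13 and -0.050. Cox6b1 had 12.45 and 12.16 (-0.29), with 0.24 on its dimmer probe set. Cox6c had 12.44 and 12.36 (-0.072), Cox7c had 12.58 and 12.72 (0.15) and Cox7a2l 11.49 and 11.44 (-0.049). Cox4i1, the partner of the catalytic core, had no usable value; with its copied control value kept it would read 13.03 and 13.20.

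Tissue-restricted isoform genes of complex IV were also on the array. Cox8b, the heart and skeletal muscle isoform of subunit 8 in rodents, had 7.95 in the control and 6.03 in the knockdown (-1.92), which is 3.77-fold lower between a value above the filter and a value below it. It was read by 1 probe set in the middle section, where 4.48% of all genes past the filter differed by at least 2-fold. The common isoform Cox8a had 11.24 and 11.14 (-0.095), with -0.097 on its other probe set. Cox8c, the testis isoform, had 7.92 and 8.14 (0.23), the highest difference of the complex. Cox8a was read from the first section, and Cox8c, on its only probe set, from the last. The 3 genes of the same subunit thus did not share a direction or a section. The part of the section in their differences was not tested.

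The other muscle isoforms did not follow Cox8b. Cox6a2 had 6.75 and 6.74 (-0.0066), with a mean just above the filter, and Cox7a1 had 7.35 and 7.31 (-0.046). Both were read from the first section, where differences were narrow, and Cox8b from the middle. Of 6 muscle marker genes with a usable value, 1 passed the filter, Tnnt2, with 8.06 and 8.07. The other 5 lay below the filter on both arrays: Ckm (5.92 and 5.88) and Myh7 (5.44 and 5.31) were lower in the knockdown, and Acta1 (0.31), Myl2 (0.16) and Tnni3 (0.025) were higher by these differences. Among the testis isoforms Cox6b2 had 9.09 and 8.96 (-0.13), and Cox7b2 was dim at 3.79 and 3.83. Cox4i2, the isoform known from lung, was below the filter with 5.13 and 5.11.

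The promoter windows of Cox8a and Cox8b are shown as those of the common and the muscle gene of the same subunit, which differ in CG content. The sequences are RefSeq's for GRCm38.p6 and run from 250 bases before the gene's start to 50 after it, 5′ to 3′ on the gene's strand, with each CG in capitals. Cox8a lies on the minus strand at chr19:7217567-7217866 and its window holds 19 CG. Cox8b lies on the minus strand at chr7:140900397-140900696 and holds 2, the lowest number among the 70 genes with a window. The median was 20 over those 70 genes, 23 over 6767 genes past the filter and 8 over 27025 genes of the RefSeq table. DNA methylation was not measured here.
Cox8a: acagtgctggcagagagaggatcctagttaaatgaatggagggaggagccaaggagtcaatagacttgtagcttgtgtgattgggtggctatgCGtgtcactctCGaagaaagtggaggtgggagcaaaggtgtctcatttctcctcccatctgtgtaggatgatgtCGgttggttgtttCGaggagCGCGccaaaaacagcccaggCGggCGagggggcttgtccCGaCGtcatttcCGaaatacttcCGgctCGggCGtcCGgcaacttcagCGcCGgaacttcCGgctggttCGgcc
Cox8b: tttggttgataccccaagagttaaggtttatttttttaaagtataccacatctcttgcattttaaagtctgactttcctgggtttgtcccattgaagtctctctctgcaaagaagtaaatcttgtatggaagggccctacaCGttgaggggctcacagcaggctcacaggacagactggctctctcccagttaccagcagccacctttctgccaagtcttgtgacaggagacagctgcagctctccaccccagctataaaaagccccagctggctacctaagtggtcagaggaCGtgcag

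Complex V consists of a catalytic head, a stalk and a ring in the membrane that turns as protons pass. Its 16 genes past the filter had a median of -0.036, and 12 lay below 0, from -0.42 to 0.041. In the head, Atp5a1 (alpha) had 13.11 in the control and 13.08 in the knockdown (-0.028) and Atp5b (beta), which holds the catalytic sites, had 13.26 and 13.25 (-0.014). Atp5c1, the gamma subunit of the central stalk, had 12.52 and 12.53 (0.0092). These main genes of the enzyme hardly differed. The delta subunit gene Atp5d had 12.43 and 12.12 (-0.31) on a probe set of the last section and -0.0064 on one of the first. Atp5e, the epsilon subunit, had 10.69 and 10.62 (-0.070).

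Atp5g1, Atp5g2 and Atp5g3 each encode the c subunit of the rotating ring. They lay at 11.55 and 11.49 (-0.057), 12.38 and 12.34 (-0.033) and 13.00 and 12.95 (-0.043). All 3 lay below 0, as did 12 of the 16 genes of the complex past the filter, by amounts near the median probe-set SD of 0.052. Atp5g3 was read from the last section and the others from the first. With section centring, Atp5g1 was at -0.060, Atp5g2 at -0.036 and Atp5g3 at -0.0093. In the side stalk, Atp5h (subunit d) had the lowest difference of the complex, with 12.36 and 11.95 (-0.42), while its dimmer probe set had 8.41 and 8.79 (0.37), in the opposite direction. Atp5o had 11.99 and 11.95 (-0.038) and Atp5pb (subunit b) 11.38 and 11.37 (-0.0090). Atp5k (subunit e) had 11.97 and 11.82 (-0.15) and 0.26 on its dimmer probe set. Atp5l (subunit g) and, in complex I, Ndufa4l2 had no usable value; with the copied control value kept they would read 11.36 and 11.64, and 8.44 and 8.40. Atp5md, a small membrane subunit, was highest, with 10.15 and 10.19 (0.041), a difference that another probe set shared to 8 decimals.

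Probe sets of the same gene were compared for the 39 genes past the filter that had several. For 20 of them the probe sets spanned no more than 0.1, as for Cox8a and Cox7a2l. For 20 they all lay on the same side of 0, below it in 13 genes and above it in 7. The shares of such genes over the whole array were not computed. The median span was 0.096, against 0.12 over the 4565 genes of the array past the filter with several usable probe sets. In 6 genes probe sets of opposite sign lay at least 0.4 apart: Atp5h, Atp5k, Cox6b1, Ndufaf8, Ndufc1 and Ndufv1. That is 6 of 39, against 18.9% of the 4565 genes of the array with several usable probe sets. In Ndufc1, an accessory subunit gene, the brighter probe set had 11.28 and 11.39 (0.11) and the dimmer one 8.87 and 8.51 (-0.37). In these 6 genes a direction cannot be given for the gene.

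**Figure D3:**
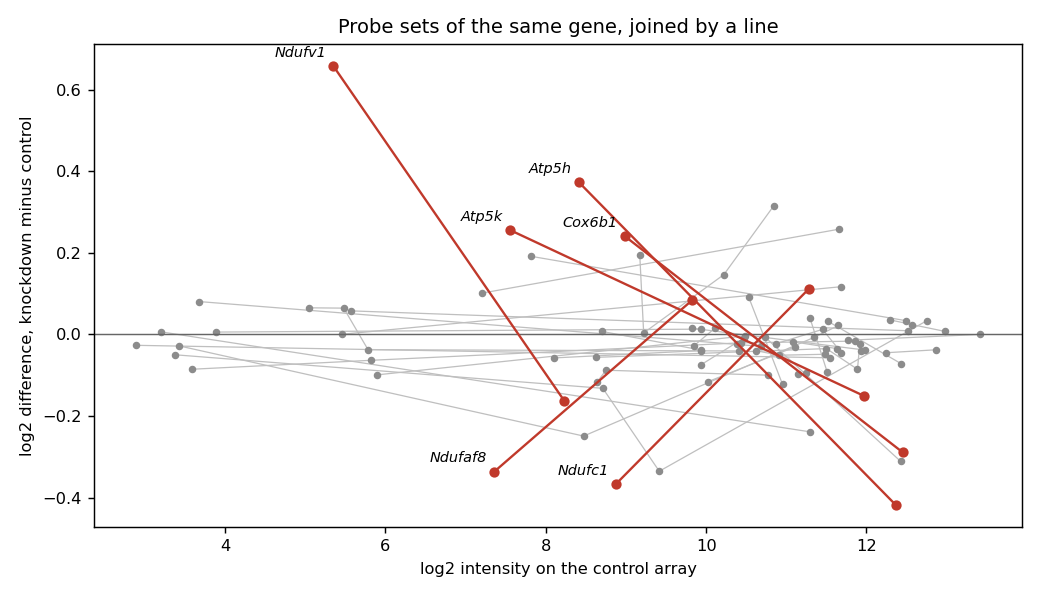
The log2 difference (knockdown minus control) of each usable probe set against its log2 intensity on the control array, for genes with several probe sets, with a line joining probe sets of 1 gene. The 6 genes whose probe sets lie at least 0.4 apart with opposite signs are in red and named, and most others (grey) stay near 0.

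Promoters of these genes are known to bind NRF1, GABP (a factor of the ETS family) and YY1. Their windows were searched on both strands for GCGCATGCG (from the NRF1 site), CCGGAAG (ETS) and AAGATGGCG (YY1), whose matches may share letters at their ends. Windows were found for 70 of the 87 genes. The NRF1 letters were in 10 windows (14.3%), against 4.67% of genes past the filter and 1.95% of the RefSeq table. The ETS letters were in 17 (24.3%), against 22.6% and 9.93%, and the YY1 letters in 8 (11.4%), against 4.33% and 1.64%. The 9 genes with NRF1 letters and a usable value had a median difference of -0.033, and the 60 without had -0.030. For ETS the medians were -0.015 (16 genes) and -0.033 (53), and for YY1 0.023 (8) and -0.038 (61).

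The windows of Cox6a1 and Uqcrc1 are shown because they hold the NRF1 letters and belong to the genes with the brightest probe set in complexes IV and III. Capitals mark the searched letters, and overlapping matches on both strands run together. Cox6a1 lies on the minus strand at chr5:115348909-115349208, with the NRF1 letters followed further on by the ETS letters. Uqcrc1 lies on the plus strand at chr9:108936398-108936697, with the NRF1 letters after the start of the gene.
Cox6a1: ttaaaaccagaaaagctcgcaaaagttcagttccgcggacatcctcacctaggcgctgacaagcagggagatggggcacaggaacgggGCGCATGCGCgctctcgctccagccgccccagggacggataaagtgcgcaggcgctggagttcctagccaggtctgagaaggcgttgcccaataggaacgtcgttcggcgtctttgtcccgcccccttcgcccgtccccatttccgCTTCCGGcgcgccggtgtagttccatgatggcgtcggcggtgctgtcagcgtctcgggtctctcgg
Uqcrc1: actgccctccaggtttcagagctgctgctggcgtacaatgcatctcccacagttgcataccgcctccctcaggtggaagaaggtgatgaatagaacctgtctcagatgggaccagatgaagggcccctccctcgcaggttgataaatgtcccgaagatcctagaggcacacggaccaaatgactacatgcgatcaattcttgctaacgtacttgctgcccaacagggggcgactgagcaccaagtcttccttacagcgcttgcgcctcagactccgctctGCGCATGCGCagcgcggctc

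Other genes of respiration were taken from lists. Of 7 electron carriers and partners outside the naming rule and past the filter, 4 lay below 0. Cyc1, the cytochrome c1 of complex III, had 12.09 in the control and 12.11 in the knockdown (0.018), and Cycs, cytochrome c, had 9.68 and 9.45 (-0.22). Atpif1, the inhibitor of the ATP synthase, had 11.42 and 11.77 (0.35), read from the middle section. Assembly factors beyond the Ndufaf genes above had 15 of 27 below 0 and a median of -0.013. Foxred1 of complex I was at -0.48, read from the last section. Cox10, which makes heme for complex IV, was at 0.55, read from the middle section. None of these lists had a gene 2-fold different past the filter, against 1.96% of all genes past it. Lists of 7 and 27 genes are too short to tell none from that share.

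Genes of the citric acid cycle and of pyruvate entry had 11 of 18 below 0 and a median of -0.017. Only Mpc1, of the mitochondrial pyruvate carrier, passed 1.5-fold, with 8.28 and 8.94 (0.66), read from the last section. Cs, citrate synthase, had 11.48 and 11.67 (0.19). Carriers and import genes had 14 of 22 below 0 and a median of -0.018. There Slc25a13, an aspartate and glutamate carrier, passed 1.5-fold with 7.31 and 6.71 (-0.60), the knockdown value below the filter of 6.73. Slc25a13 was also read from the last section. Of all 1667 genes past the filter in that section, 63 were at least 1.5-fold higher and 120 at least 1.5-fold lower. Regulators of mitochondrial biogenesis and of mitochondrial DNA had 7 of 13 below 0 and a median of -0.0058. They included the mitochondrial RNA polymerase gene Polrmt (9.13 and 8.59, a difference of -0.54), Tfam (10.07 and 9.82, -0.25) and Nrf1 (9.13 and 8.94, -0.19), each read from the middle section. On the other side of 0 lay Twnk, the helicase of mitochondrial DNA (8.85 and 9.13, 0.28, middle section), Pprc1 (0.19), Ppargc1b (0.14) and Tfb1m (0.11).

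Among genes read from the first section alone, the oxidative phosphorylation genes had 44 of 55 below 0. Each complex leaned the same way there, with 23 of 30 for complex I, 2 of 2 for complex II, 5 of 5 for complex III, 6 of 8 for complex IV and 8 of 10 for complex V. The lists without members had 3 of 5 below 0 for other respiratory chain genes, 8 of 14 for assembly factors, 9 of 13 for the citric acid cycle, 9 of 15 for carriers and import and 3 of 6 for biogenesis. Their medians were -0.025, -0.015, -0.017, -0.0073 and 0.026.

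**Figure D4:**
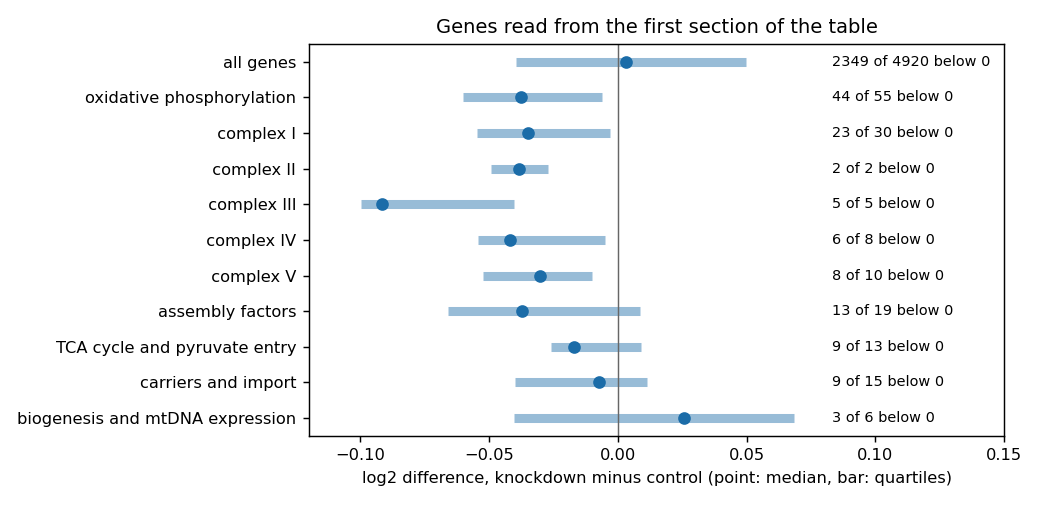
Median (points) and quartiles (bars) of the log2 difference, knockdown minus control, for genes past the filter read from the first section of the table, with the number below 0; the assembly factor list includes the Ndufaf genes. The bars of the oxidative phosphorylation genes and of each complex lie left of 0, and that of all genes is centred near 0.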

How the data were processed

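Per the submitters' processing notes, the authors made the deposited log2 values with RMA (no version given), a method of background correction, quantile normalisation and probe summary. The deposited table states no scale. The control column was read as log2 intensities from its range, and the knockdown column, which the values show to be mixed with other numbers, likewise after removing a series rising by 1 and values above 20. The genome build and annotation the authors used are not given in the sources used here. Gene names are those of the platform's annotation (28898 probe sets naming 1 gene, 551 several, 15669 none). Promoter windows come from RefSeq (GRCm38.p6). Analysis used Python 3.11.15, pandas 2.3.3 and statsmodels 0.14.6, and the steps were tested on simulated data.

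With 1 array per group no test was run; the number of arrays limits the precision, and calls are differences of at least 1.5-fold or 2-fold. Genes named are the brightest-read, highest and lowest of each complex, those past 1.5-fold, those with conflicting probe sets, those with no usable value, and fixed core subunits and isoforms. Ndufb5, Ndufa7, Ndufb8, Ndufaf1 to Ndufaf3, Cox6c, Cox7c, Atp5o, Atp5pb, Atp5j2 and genes of the other lists were named after their values were seen. The members and lists were chosen with earlier results of these data known. Protein identity between isoforms was planned and not analysed here.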

Additional observations from a re-analysis of the deposited data

How the results depend on the processing

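No paired analysis was possible because each group had 1 array, and for the same reason no replicate could be left out. The values were recomputed with the median over probe sets, the probe set brightest on the control array, probe sets without a suffix, no filter, the 75th percentile filter, median, lowess and section centring, keeping copied control values, and leaving out Cox8b. Sections alone, subunits alone and leaving out both values of a copied pair were chosen after seeing the data. The counts of genes at least 1.5-fold lower and at least 2-fold different were 0 in place of 1 under the 75th percentile filter, without Cox8b and in the first section alone, because Cox8b was not among the genes. In the middle and last sections alone (26 genes) the median turned from -0.033 to 0.030 and the share below 0 from 66.7% to 38.5%. Of all genes past the filter in these 2 sections 54.8% lay below 0, with a median of -0.034. The medians by complex were 0.061 for complex I, 0.090 for complex III and -0.097 for complex V. The cause of the turn was not tested. The small medians also shifted elsewhere. Complex II, at 0.0051, turned to -0.038 without suffix probe sets and in the first section alone, -0.016 under the 75th percentile filter, -0.0077 with the median over probe sets and -0.0022 with lowess centring. Complex V went from -0.036 to -0.0090 without suffix probe sets and -0.018 with the median over probe sets, and complex I from -0.030 to -0.013 with subunits alone and -0.017 under the 75th percentile filter. Over all genes of the set the median stayed between -0.044 and -0.024 under the settings other than the middle and last sections alone. When probe sets with a suffix were left out, Atp5h was at 0.37, Atp5k at 0.26, Cox6b1 at 0.24, Ndufv1 at 0.66, Cox5b at -0.34, Ndufc1 at -0.37, Ndufaf8 at -0.34, Ndufa12 at 0.0064, Ndufs7 at -0.074 and Ndufs8 at 0.20. With the median over probe sets, Ndufv1 was at 0.25, Atp5k at 0.053, Cox5b at -0.091, Ndufaf8 at -0.13 and Ndufc1 at -0.13, each with its sign turned, while Atp5h was at -0.022, Cox6b1 at -0.024, Atp5d at -0.16, Ndufa12 at -0.12, Uqcrc2 at -0.025 and Ndufs8 at 0.17. Cox6a1, at 0.00012, turned to -0.0070 with that median and -0.0029 with section centring.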

Other observations

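Differences between the arrays were shared to 8 decimals by more than 1 probe set in 0.211% of 17529 probe sets of the first section, in 5.10% of 13941 of the middle one and in 10.5% of 11415 of the last one, leaving out copied values and differences of 0. Cox5b and Atp5j2 were such a pair, with the same difference of 0.0338 from 12.75 to 12.79 and from 12.49 to 12.53. Sdhc, Atp5md and Uqcr11, read from the middle section, each shared theirs with another probe set. Uqcrfs1, Atp5g3 and Ndufaf2, read from the last section, each shared theirs with at least 1 other. So did the dimmer probe sets of Ndufa5 and Ndufb2, which were not used for the gene values. Cox5b, Atp5j2, Sdhc, Atp5md and Uqcr11 were among the 17 genes of the middle section, and all lay above 0, as did 12 of the 17. The median of that section, 0.034, is the difference that Cox5b and Atp5j2 share. The last section held 9 genes. Differences equal to the log2 of a ratio of whole numbers up to 60, within 2e-09, numbered 1 among those of the first section, 56 among those of the middle and 119 among those of the last. How the sections were made was not tested, nor whether repeated differences bear on the counts and medians by section.

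The 57 usable probe sets other than the brightest of each gene were not used for the counts above. Of the 42 past the filter, 26 lay below 0, against 50.9% of all probe sets of the array past the filter. Of all 57, 33 lay below 0, and the range was -0.37 to 0.66. They read the same genes on the same 2 arrays, so they are no independent count.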
